A study of Homo sapiens with 6 samples.

Results

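The core genes of the circadian clock were followed in A549 cells, an established line from a human lung carcinoma, after culture without glucose. The set holds PER1, PER2, PER3, CRY1, CRY2, NR1D1, NR1D2, BMAL1 (listed under its older name ARNTL in some annotations), CLOCK and BHLHE40. These were chosen by name as parts of the clock, with earlier results of these data known. All 10 were found, by Entrez number, among the 19240 genes of the deposited count table. The tested cells had been kept without glucose for 48 h and the comparison cells in 25 mM glucose for the same time, with 3 libraries per group; both groups are the same line, and the labels name no genetic change and no other agent. Reads were counted from transcript 3′ ends. The labels give no clock time of harvest and no step that would set the phase of the cells, so a change in a gene's level and a shift in the phase of its rhythm cannot be told apart at 1 time point.

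The clock is a feedback loop of transcription. CLOCK and BMAL1 form a dimer that binds E-boxes and switches on the PER and CRY genes, whose proteins return to the nucleus and block that dimer. A second loop runs through the nuclear receptors NR1D1 and NR1D2 (REV-ERB alpha and beta), which are switched on by the dimer and repress BMAL1 through ROR elements, while BHLHE40 (DEC1) competes for E-boxes. D-boxes are bound by the output factors DBP, TEF and HLF and by their opponent NFIL3. The loop runs in lung epithelium as in most tissues, and in cultured lines the cells drift out of step unless they are synchronised.

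The promoters of the 3 genes that differed between the groups, PER2, BHLHE40 and CLOCK, are shown with that of PER1, which holds an E-box but whose own values did not pass the test. Each runs 5′ to 3′ on the gene's strand, from 250 bases before to 50 bases after the RefSeq start site of build GRCh38.p14, and capitals mark every motif found: E-box CACGTG, E-prime box CACGTT, D-box TTANGTAA, ROR half-site AGGTCA and CRE core TGACGT, each searched on both strands. The PER2 window is chr2:238288561-238288860 (minus strand), the BHLHE40 window chr3:4979187-4979486 (plus strand), the CLOCK window chr4:55546860-55547159 (minus strand) and the PER1 window chr17:8152355-8152654 (minus strand).
PER2: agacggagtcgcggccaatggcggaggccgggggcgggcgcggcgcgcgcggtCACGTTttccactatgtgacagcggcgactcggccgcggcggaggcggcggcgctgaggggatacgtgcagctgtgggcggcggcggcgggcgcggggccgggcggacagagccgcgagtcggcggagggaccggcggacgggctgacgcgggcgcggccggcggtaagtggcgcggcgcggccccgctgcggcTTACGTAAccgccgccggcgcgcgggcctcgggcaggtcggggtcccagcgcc
BHLHE40: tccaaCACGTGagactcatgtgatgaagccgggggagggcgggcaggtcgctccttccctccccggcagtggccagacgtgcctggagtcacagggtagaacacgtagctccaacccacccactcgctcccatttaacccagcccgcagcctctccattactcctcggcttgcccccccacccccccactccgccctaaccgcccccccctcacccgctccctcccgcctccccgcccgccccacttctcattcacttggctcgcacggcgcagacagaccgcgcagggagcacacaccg
CLOCK: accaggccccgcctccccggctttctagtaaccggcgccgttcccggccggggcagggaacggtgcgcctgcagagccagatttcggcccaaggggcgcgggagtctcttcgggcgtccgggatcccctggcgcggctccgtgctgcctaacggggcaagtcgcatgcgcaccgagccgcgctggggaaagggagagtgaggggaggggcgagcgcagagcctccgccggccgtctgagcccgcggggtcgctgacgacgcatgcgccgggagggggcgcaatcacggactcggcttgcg
PER1: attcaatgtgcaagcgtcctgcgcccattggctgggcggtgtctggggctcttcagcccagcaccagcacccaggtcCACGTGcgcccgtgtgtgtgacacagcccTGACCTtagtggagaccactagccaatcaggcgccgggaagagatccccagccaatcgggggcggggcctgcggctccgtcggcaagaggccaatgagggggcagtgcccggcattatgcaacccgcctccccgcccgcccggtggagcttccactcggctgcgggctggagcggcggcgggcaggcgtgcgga

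In the PER2 window the E-prime box began 197 bases before the start site and the D-box lay across it. That start site is 11455 bases inside the outermost PER2 start of the same annotation, so other PER2 promoters were not searched. BHLHE40 had an E-box 245 bases before its start, and PER1 one 173 bases before its start with a ROR half-site on the other strand at 144. The CLOCK window held none of the 5 motifs. Among the promoters of all 10 genes, 2 held an E-box, 3 an E-prime box (PER2, CRY1 and NR1D1), 3 a ROR half-site (BMAL1, PER1 and CRY2), 2 a D-box (PER2 and PER3) and 0 the CRE core. Of 35116 RefSeq promoters of the same length, 7.26% held the E-box, 5.34% the E-prime box, 13.8% the ROR half-site, 2.18% the D-box and 7.98% the CRE core. A match is a string of letters and not a bound site, and binding was not measured in these cells.

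**Figure D1:**
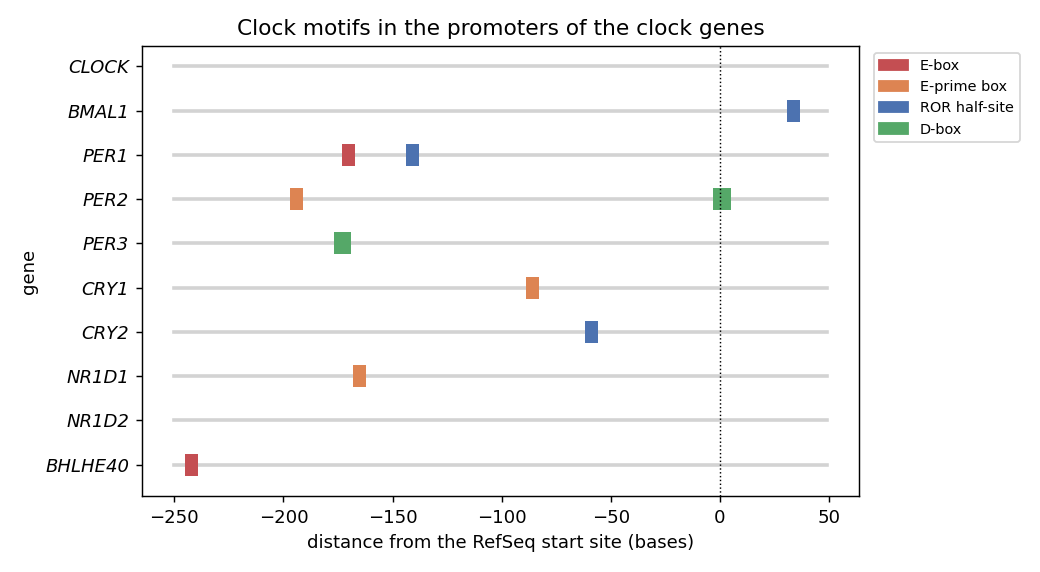
Position of each motif (coloured bar) along the promoter window of each clock gene, in bases from the RefSeq start site (dotted line). PER2 holds an E-prime box and a D-box, BHLHE40 an E-box, and the CLOCK and NR1D2 windows hold none of the 5 motifs.

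Without glucose, CLOCK and BHLHE40 rose, PER2 fell, and the other 7 clock genes did not pass the test. Groups were compared with the quasi-likelihood test of edgeR on the raw counts, with Benjamini-Hochberg adjustment over all 11886 genes tested, and an adjusted p under 0.05 passed. All 10 clock genes were tested. Of all genes tested 11.6% rose and 10.7% fell, 22.3% together, against 3 of these 10, so the count alone says little about the clock genes as a set. Their median log2 fold change was 0.01, with 0.02 over all genes tested. Nothing in the labels says that replicates were grown separately, so the p-values cover variation from library to library alone, and that variation may be technical. In RNA from whole cultures, fewer cells with a transcript and less of it per cell cannot be told apart.

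**Figure D2:**
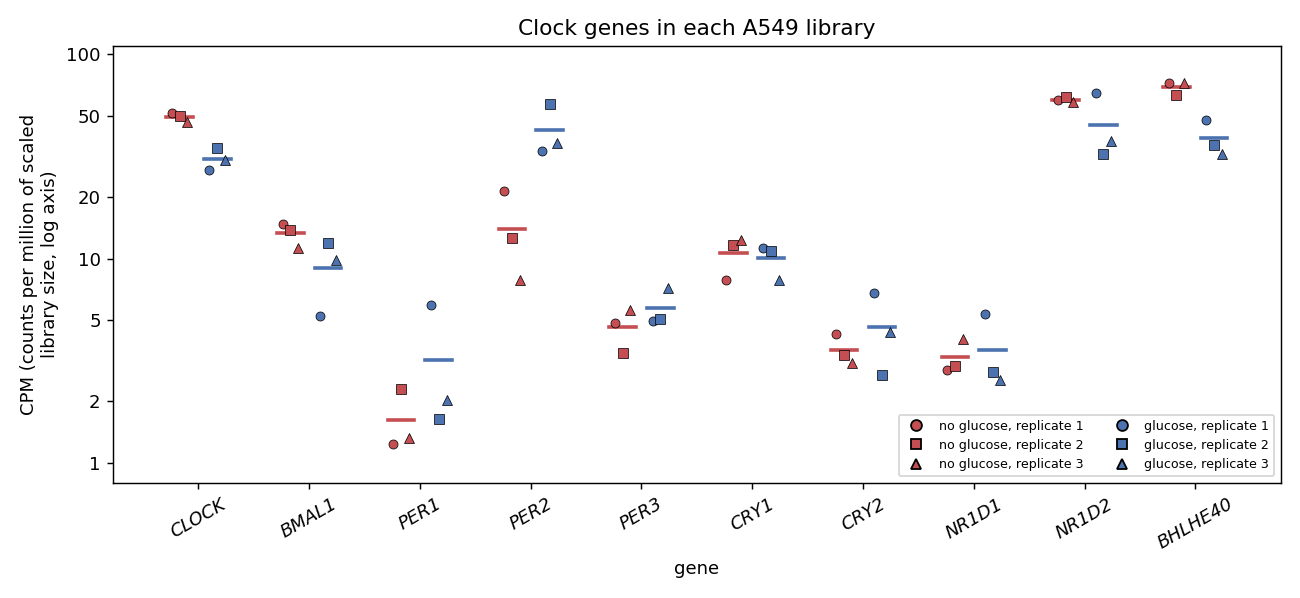
CPM (counts scaled to the library size, log axis) of each clock gene in each library, cells without glucose in red and with glucose in blue; symbols give the replicate and short lines the group means. The groups are apart for CLOCK, PER2 and BHLHE40 and overlap for the other 7 genes.

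CLOCK (Entrez 9575), the activator that pairs with BMAL1, measured 51.6, 50.02 and 46.8 CPM in replicates 1, 2 and 3 without glucose, and 27.1, 34.9 and 30.5 CPM with glucose. CPM are counts relative to the library size after TMM scaling. Every library without glucose lay above every library with glucose, by more than the spread within either group. The means were 49.5 ± 2.42 CPM without glucose and 30.9 ± 3.93 CPM with glucose (SD, n = 3 per group), a log2 fold change of 0.68 ± 0.19 (SE; edgeR adjusted p = 0.0247). This call missed the threshold when any library except replicate 2 with glucose was left out (adjusted p from 0.0545 to 0.0818 for those, edgeR) and with a replicate block (adjusted p = 0.0660). Exons of TMEM165 overlap those of CLOCK on the opposite strand in GENCODE 29, and the strand setting of the counting is not given in the sources used here. TMEM165 moved the other way, with 27.1 ± 5.58 CPM without glucose and 58.8 ± 16.5 CPM with glucose (SD, n = 3; edgeR adjusted p = 0.00667), and its part in the CLOCK count was not tested.

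BMAL1 (Entrez 406), the partner of CLOCK, had 14.8, 13.8 and 11.3 CPM without glucose and 5.23, 11.9 and 9.84 CPM with glucose. The groups overlapped, because replicate 2 with glucose lay above replicate 3 without it. The log2 fold change was 0.55 ± 0.29 (SE) and did not pass (edgeR adjusted p = 0.201). The low value was replicate 1 with glucose, whose 37 counts gave an exact 95% counting interval of 3.68 to 7.20 CPM, below the intervals of replicates 2 and 3 (9.90 to 14.2 CPM and 8.28 to 11.6 CPM). Without that library the log2 fold change of BMAL1 was 0.29 (edgeR adjusted p = 0.435).

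PER2 (Entrez 8864), a repressor of the CLOCK and BMAL1 dimer, had 21.5, 12.6 and 7.88 CPM without glucose and 33.6, 57.4 and 36.7 CPM with glucose. The groups did not overlap, and within the cells without glucose replicate 3 was the lowest and replicate 1 the highest. The means were 14.0 ± 6.92 CPM without glucose and 42.6 ± 12.9 CPM with glucose (SD, n = 3 per group), and PER2 fell with a log2 fold change of −1.61 ± 0.33 (SE; edgeR adjusted p = 0.00496). It stayed under the threshold in all 12 alternatives run, with adjusted p-values up to 0.0284 and log2 fold changes from −2.06 to −1.33. Of the 10 clock genes, it was the 1 whose call held in each of them. An annotated noncoding transcript, AC012485.1, overlaps PER2 exons on the opposite strand and has no row under that name in the table.

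The other period genes did not follow PER2 past the threshold. PER1 (Entrez 5187), which besides its E-box control is a rapid-response gene, had 1.23, 2.29 and 1.33 CPM without glucose and 5.93, 1.63 and 2.04 CPM with glucose. A single library, replicate 1 with glucose, stood above the rest, and the other 5 were intermingled. Its log2 fold change was −0.92 ± 0.55 (SE; edgeR adjusted p = 0.249), and −0.18 without that library (edgeR adjusted p = 0.834). PER1 was counted 13 to 42 times per library, so its counting error was wide: replicate 1 with glucose had an exact 95% counting interval of 4.27 to 8.02 CPM, against 1.37 to 2.93 CPM for replicate 3 with glucose. PER3 (Entrez 8863), another member of the family, had 4.83, 3.44 and 5.59 CPM without glucose and 4.94, 5.09 and 7.17 CPM with glucose. These overlapped, with a log2 fold change of −0.32 ± 0.32 (SE; edgeR adjusted p = 0.494). Whether PER2 fell further than PER1 or PER3 was not tested.

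Neither cryptochrome, the flavoprotein-like repressors that bind PER proteins, passed. CRY1 (Entrez 1407) had 7.87, 11.7 and 12.4 CPM without glucose and 11.3, 10.9 and 7.88 CPM with glucose. Its groups covered nearly the same range, and the log2 fold change was 0.10 ± 0.27 (SE; edgeR adjusted p = 0.821). CRY2 (Entrez 1408) had 4.26, 3.37 and 3.09 CPM without glucose and 6.78, 2.69 and 4.36 CPM with glucose. Here the libraries with glucose held both the highest and the lowest value, and the log2 fold change of −0.35 ± 0.38 (SE) did not pass (edgeR adjusted p = 0.543). The sign of CRY1 changed in 2 of 12 alternatives and that of CRY2 in 1, so no direction is given for them. For CRY2 that value was 0.00081, on leaving out replicate 1 with glucose.

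The REV-ERB receptors, which repress BMAL1, did not pass in the fit with all libraries. NR1D2 (Entrez 9975) had 59.7, 62.0 and 58.5 CPM without glucose, a narrow range, and 64.8, 32.4 and 37.6 CPM with glucose. Replicate 1 with glucose lay above all 3 libraries without glucose and the other glucose libraries lay well below them. The log2 fold change was 0.42 ± 0.25 (SE; edgeR adjusted p = 0.25), and 0.78 with an edgeR adjusted p of 0.0194 when replicate 1 with glucose was left out. The other 11 alternatives gave no call for NR1D2. NR1D1 (Entrez 9572) had 2.84, 2.98 and 4.05 CPM without glucose and 5.37, 2.78 and 2.53 CPM with glucose. Its groups overlapped (log2 fold change −0.08 ± 0.40, SE; edgeR adjusted p = 0.911), and its sign changed in 2 of the 12 alternatives. The last exon of NR1D1 is known to lie over that of THRA, a thyroid hormone receptor gene on the opposite strand, and GENCODE 29 lists the overlap. THRA had 14.4 ± 0.591 CPM without glucose and 28.6 ± 1.83 CPM with glucose (SD, n = 3; edgeR adjusted p = 0.00392), and its part in the NR1D1 count was not tested.

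BHLHE40 (Entrez 8553), an E-box repressor that also responds to many stresses, had 72.7, 63.1 and 72.1 CPM without glucose and 47.7, 36.1 and 32.6 CPM with glucose. The 2 groups were apart, and replicate 1 with glucose was the highest of its group. The means were 69.3 ± 5.37 CPM without glucose and 38.8 ± 7.91 CPM with glucose (SD, n = 3 per group). It rose with a log2 fold change of 0.84 ± 0.21 (SE; edgeR adjusted p = 0.0134). The call missed the threshold without replicate 2 with glucose (edgeR adjusted p = 0.0633) and without replicate 3 with glucose (0.0691). Across the 10 genes the number that rose was therefore 0 without replicate 3 with glucose, and 1 without replicate 2 with glucose or without any library of the cells without glucose. Without replicate 1 with glucose 2 rose, BHLHE40 and NR1D2, and CLOCK did not. An annotated antisense transcript, BHLHE40-AS1, overlaps BHLHE40 exons on the opposite strand, and its part in the BHLHE40 count was not tested. Exons of 7 of the 10 clock genes are overlapped by another annotated gene.

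**Figure D3:**
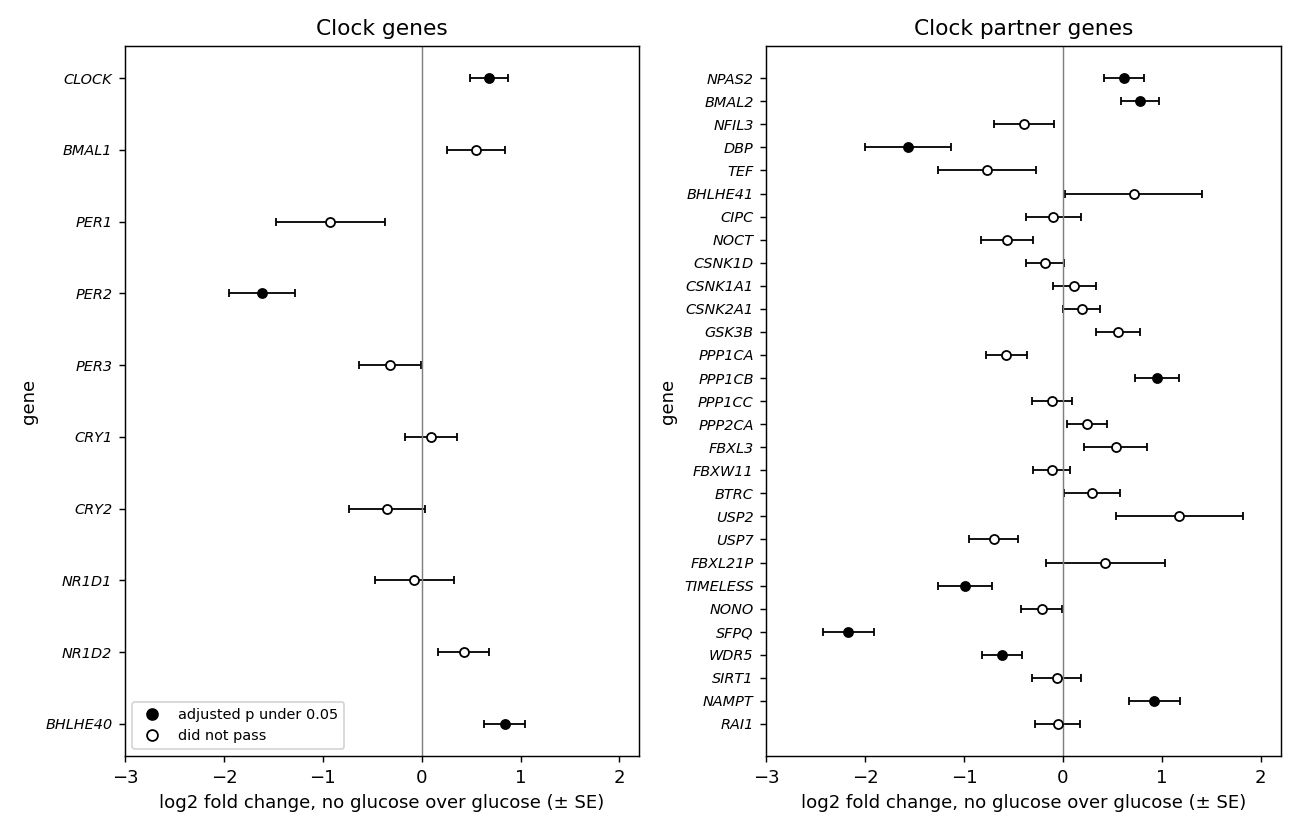
Log2 fold change of each clock gene (left) and each tested clock partner (right), cells without glucose over cells with glucose, with SE as bars; filled points had an edgeR adjusted p under 0.05. CLOCK and BHLHE40 lie right of 0 and PER2 left of it, and 8 of 29 partners are filled, 4 on each side.

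The level of PER2 relative to CLOCK could be read without any scaling of the libraries, as the PER2 counts per CLOCK count within each library. Such a ratio does not show which gene moved, or that they moved in opposite directions. That ratio was 0.417, 0.252 and 0.168 without glucose and 1.24, 1.64 and 1.20 with glucose. Each library without glucose lay below each with glucose, with means of 0.279 ± 0.127 and 1.36 ± 0.244 (without and with glucose; SD, n = 3 per group). The pair was taken because both genes had passed, so the ratio is a description and has no test. In the 3′-end counts of these libraries the CPM groups were apart for 3 of the 10 clock genes, against 40.4% of all genes tested.

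**Figure D4:**
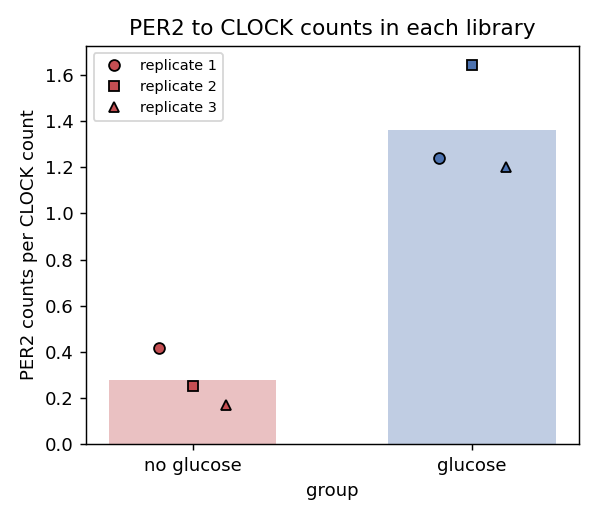
PER2 counts per CLOCK count in each library (symbols, by replicate) with the group mean as a bar. Cells without glucose sit between 0.168 and 0.417 and cells with glucose between 1.20 and 1.64.

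Among the libraries with glucose, replicate 1 differed most from the others in the clock genes. Against the mean of replicates 2 and 3 it held 3.23 times the PER1, 2.02 times the NR1D1, 1.92 times the CRY2 and 1.85 times the NR1D2 level. Its BMAL1 was 0.481 times and its PER2 0.714 times that mean. Thus 3 of the 10 genes (PER1, NR1D1 and BMAL1) were past 2-fold in that library, against 9.80% of all genes tested. In replicate 2 with glucose 2 of the 10 were past 2-fold from the mean of the others, PER1 at 0.410 and CRY2 at 0.483 times, against 5.62% of all genes tested. Replicate 1 was also the shallowest library, with 6701004 gene counts. In the cells without glucose the largest such contrast was PER2, at 2.10 times the mean of the other libraries in replicate 1 and 0.462 times in replicate 3. NR1D2 and CLOCK were the most even in these cells, within 0.921 to 1.06 times.

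**Figure D5:**
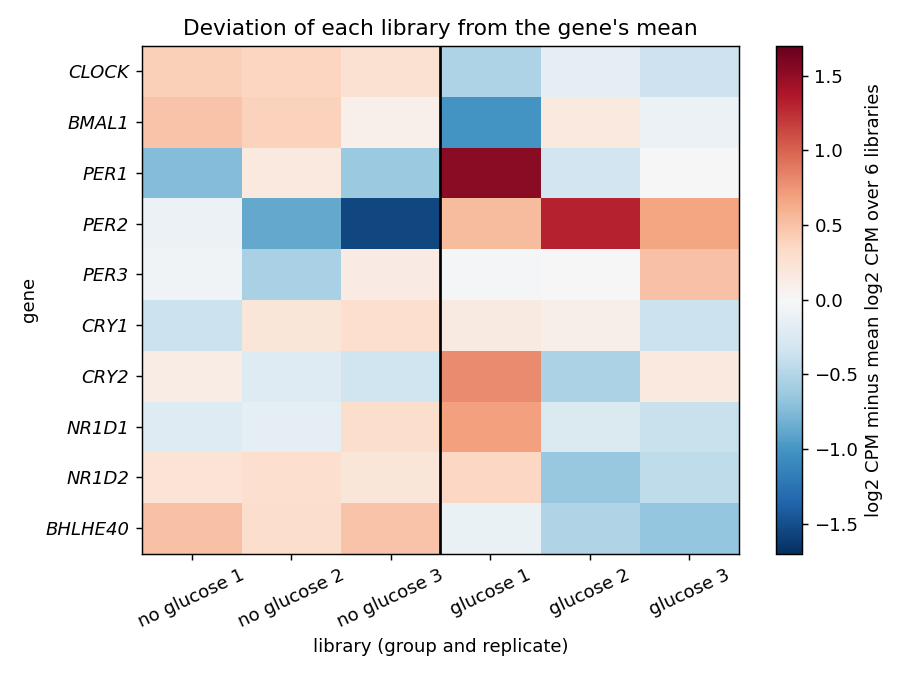
Log2 CPM of each clock gene in each library minus the gene's mean over the 6 libraries, cells without glucose left of the black line. Replicate 1 with glucose is high for PER1, CRY2, NR1D1 and NR1D2 and low for BMAL1, unlike replicates 2 and 3 of its group.

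Genes that work with these core genes were taken from a list of 35 partners, of which 29 were tested; 4 rose, 4 fell and 21 did not pass. That is 27.6% of those tested, near the 22.3% over all genes. Their median log2 fold change was −0.06. Leaving out replicate 3 of the glucose-free cells left 0 that rose, and leaving out replicate 2 with glucose left 2. The partners that fell numbered 1 on leaving out replicate 2 or 3 of the glucose-free cells or replicate 3 with glucose, and 2 on leaving out replicate 2 with glucose.

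Both paralogs of the activators, a sublist of 2 genes, rose in the fit with all libraries, against 11.6% of all genes tested. BMAL2, which can stand in for BMAL1, had 34.4, 30.5 and 34.0 CPM without glucose and 17.4, 20.7 and 19.6 CPM with glucose, groups that did not overlap. Its log2 fold change was 0.78 ± 0.19 (SE; edgeR adjusted p = 0.0130), and only without replicate 3 of the cells without glucose, among 12 alternatives, did it miss the threshold (0.0526). NPAS2, which can stand in for CLOCK, had 61.7, 77.3 and 76.9 CPM without glucose and 53.4, 40.4 and 46.8 CPM with glucose. It rose by 0.62 ± 0.20 on the log2 scale (SE; edgeR adjusted p = 0.0457), a call lost in 7 of 12 alternatives (adjusted p up to 0.165).

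Of the output and second-loop genes, DBP, a D-box activator whose own gene is driven by E-boxes, fell. It had 2.75, 0.994 and 1.40 CPM without glucose and 6.21, 3.84 and 5.13 CPM with glucose, and the groups did not overlap. The log2 fold change was −1.57 ± 0.43 (SE; edgeR adjusted p = 0.0220), lost in 4 of 12 alternatives (adjusted p up to 0.0788). TEF, a related D-box factor, had 9, 17 and 16 counts without glucose and 17, 21 and 20 with glucose. Its CPM groups were only just apart, the nearest libraries being at 1.30 CPM without glucose and 1.41 CPM with glucose. The means were 1.11 ± 0.231 CPM without glucose and 1.94 ± 0.501 CPM with glucose (SD, n = 3). TEF did not pass (log2 fold change −0.77 ± 0.49, SE, edgeR adjusted p = 0.287). NFIL3, the opponent of these D-box factors, did not pass either. RORB, an activator of the ROR element, had a count of 0 in every library, below the floor of 3 counts, and its paralog RORA had 18, 3 and 16 counts without glucose and 3, 0 and 4 with glucose. HLF, another D-box activator, had 0 counts in each library without glucose and 0, 10 and 6 with glucose. RORA and HLF were too low to be tested.

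Of the kinases and phosphatases that act on PER proteins, 1 of 8 tested rose, near the 11.6% of all genes tested, and 7 did not pass. PPP1CB, a catalytic subunit of protein phosphatase 1, rose to 334 ± 88.9 CPM without glucose, against 173 ± 4.05 CPM with glucose (SD, n = 3; log2 fold change 0.95 ± 0.22, SE; edgeR adjusted p = 0.00926; 0.0532 without replicate 3 of the cells without glucose). CSNK1D, the casein kinase that sets the pace of PER turnover, had 91.3 ± 11.5 CPM without glucose and 104 ± 5.86 CPM with glucose (SD, n = 3; edgeR adjusted p = 0.534). Its paralog CSNK1E had a count of 0 in all 6 libraries; its exons are shared with the readthrough gene TPTEP2-CSNK1E, and HTSeq in its usual modes sets aside reads that fall in more than 1 gene. The readthrough gene itself had at most 0.847 CPM, and the part of the overlap in the count of 0 was not tested. None of the 6 genes listed as ubiquitin ligases and deubiquitinases passed, against 22.3% of all genes tested. That list includes FBXL21P, a pseudogene by its symbol. USP7, which stabilises CRY proteins, came nearest, with 132 ± 17.4 CPM without glucose and 214 ± 75.1 CPM with glucose (SD, n = 3; edgeR adjusted p = 0.0620), and passed in 4 of 12 alternatives (adjusted p from 0.0293 to 0.0454 there). With glucose its replicates 1, 2 and 3 had 162, 180 and 300 CPM. Leaving out replicate 3 with glucose moved its log2 fold change from −0.70 to −0.38 (edgeR adjusted p = 0.302). None of the 3 tested genes of a further list, of clock repressors and NOCT, passed either. NOCT was nearest (log2 fold change −0.57 ± 0.26, SE, edgeR adjusted p = 0.138).

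Among partners of the PER complex and links to metabolism 3 of 7 fell and 1 rose, against 10.7% and 11.6% of all genes tested; the 7 are 1 of 6 sublists of the partners. SFPQ, an RNA-binding protein found with PER, had 174, 117 and 178 CPM without glucose and 487, 778 and 845 CPM with glucose. It fell with a log2 fold change of −2.17 ± 0.26 (SE; edgeR adjusted p = 2.01e-04) and passed in all 12 alternatives. Its partner NONO did not pass (edgeR adjusted p = 0.486). TIMELESS, which in mammals acts in DNA replication as well as beside PER and CRY, had 66.2, 40.4 and 33.4 CPM without glucose and 70.05, 98.9 and 109 CPM with glucose. It fell with a log2 fold change of −0.99 ± 0.27 (SE; edgeR adjusted p = 0.0218), a call lost in 4 of 12 alternatives (adjusted p up to 0.0921). WDR5, a chromatin factor of the PER complex, fell with −0.62 ± 0.20 (SE; edgeR adjusted p = 0.0454), lost in 7 of 12 alternatives (adjusted p up to 0.118). NAMPT, the NAD+ salvage enzyme whose gene is a clock output, rose to 91.1 ± 29.5 CPM without glucose, against 47.9 ± 10.04 CPM with glucose (SD, n = 3; edgeR adjusted p = 0.0232; lost in 3 of 12 alternatives, adjusted p up to 0.123). SIRT1, the NAD+-dependent deacetylase that acts on the clock, had 21.2 ± 2.51 CPM without glucose and 22.4 ± 7.26 CPM with glucose (SD, n = 3; edgeR adjusted p = 0.876).

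The patterns most like those of BHLHE40 and PER2, the rising and the falling clock gene with the smallest p, were sought by Pearson's r of log2(CPM + 0.5) over the 6 libraries. For BHLHE40 these included H6PD (r = 0.998) and BMERB1 (r = 0.997). H6PD had 59.1, 54.2 and 60.4 CPM without glucose and 37.6, 27.6 and 23.7 CPM with glucose. For PER2 they were NAA40 (r = 0.996), PPP2R5D (r = 0.992) and TCIM (r = 0.991). PPP2R5D had 22.6, 13.7 and 9.42 CPM without glucose and 39.7, 52.0 and 42.1 CPM with glucose. An r of 0.95 or more was reached by 225 genes for BHLHE40 and by 68 for PER2, and since the 6 points fall into 2 groups, the difference between the groups enters every r, and none carries a p.

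Gene counts per library were 11086416 to 14060313 without glucose and 6701004 to 14259943 with glucose, so 1 count was worth 0.0736 to 0.0948 CPM without glucose and 0.0703 to 0.141 CPM with glucose. Of 11 genes listed for lung carcinoma epithelium 8 were tested and 3 fell, the keratins KRT8 and KRT18 and the reductase AKR1B10 (log2 fold changes −1.18, −0.90 and −0.92; edgeR adjusted p = 0.00150, 0.00473 and 0.00391), against 10.7% of all genes tested. The other 5 tested did not pass. Their log2 fold changes were positive for KRT7 and CDH1 (0.23 and 0.42) and negative for EPCAM, KRT19 and AKR1C1 (−0.43, −0.49 and −0.32). The summed level of the list was 4167 to 4895 CPM without glucose and 6397 to 7965 CPM with glucose. The epithelial adhesion genes were low, EPCAM at 2.56 to 4.05 CPM without glucose and 2.54 to 5.63 CPM with glucose, and CDH1 at 7.51 to 8.15 CPM without glucose and 4.57 to 6.72 CPM with glucose. The genes SFTPC and NKX2-1 of lung alveolar cells had 0 and at most 2 counts per library. Summed markers of other cell types were low: 4.51 to 5.89 CPM without glucose and 13.0 to 15.0 CPM with glucose for 6 fibroblast genes (COL1A2 and DCN at 0), and 25.0 to 39.2 CPM without glucose and 15.5 to 17.5 CPM with glucose for 6 leukocyte genes, mostly CD68 (CD3E and MS4A1 at 0). Endothelial genes summed to at most 0.847 CPM. Of 8 immediate-early genes 3 rose (FOS, JUN and EGR1), against 11.6% of all genes tested, with sums of 837 to 1093 CPM without glucose and 487 to 601 CPM with glucose. FOS did not pass when replicate 2 or 3 of the glucose-free cells or replicate 1 or 2 with glucose was left out (edgeR adjusted p from 0.0616 to 0.0899). Of 7 genes of the unfolded protein response 6 rose, against the same 11.6%, with sums of 15131 to 19557 CPM without glucose and 1798 to 2900 CPM with glucose. The part of either response, or of the fall of KRT8, KRT18 and AKR1B10, in the clock gene values was not tested.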

How the data were processed

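Total RNA of A549 cells was sequenced in 6 libraries from 3′ ends with barcoded oligo-dT primers, per the labels' protocols. The authors deposited raw read counts per Entrez gene, made with STAR and HTSeq on hg19, per the submitters' processing notes; their versions, the annotation and strand use are not given here in any source. Symbols came from a RefSeq table (GRCh38.p14; 19178 of 19240 matched), which was also the source of the promoters. HTSeq summary lines (55.3% to 56.9% of each library) stayed out of all fits. No molecular identifiers are mentioned, so intervals and floors cover counting error only.

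Libraries were grouped by title and compared with edgeR 4.0.16 (quasi-likelihood, two-sided, TMM, filterByExpr with a minimum count of 10, no covariate). The same steps were also run on counts simulated from the fitted means and dispersions, with 200 genes changed, which checks the code alone. SE, an approximation, was worked back from F and the log2 fold change. Libraries of a group differed by more than sampling noise (chi-square over degrees of freedom 22.1 to 57.3). Alternatives were other scalings, DESeq2 1.42.0, other filters, a replicate block and leaving out each library. The text names all clock genes, every partner that passed, the nearest in lists with none, and the 3 most alike genes for BHLHE40 and PER2; TEF, CSNK1D, NONO, SIRT1, untested partners and overlapping genes were added after their values were seen. Some genes that the rule names are left out. The members and lists were chosen with earlier results of these data known.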

Additional observations from a re-analysis of the deposited data

How the results depend on the processing

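The fall of PER2 and of SFPQ passed in all 12 alternatives. Over the 10 clock genes and 12 alternatives, 111 of 120 values kept their direction or stayed uncalled, 8 calls were lost (CLOCK in 6 alternatives, BHLHE40 in 2) and 1 was gained (NR1D2 without replicate 1 with glucose, 0.78 on the log2 scale). Among partners 27 calls were lost and 5 gained (USP7 in 4 alternatives, PPP1CA with DESeq2) over 345 values. The number of clock genes that rose was 0 to 2 when 1 library was left out, and the number that fell was 1 each time. Of the partners 0 to 4 rose and 1 to 3 fell when 1 library was left out, against 4 and 4 with all libraries. Over all genes 860 to 1292 rose and 781 to 1232 fell when 1 library was left out, against 1376 and 1276. With a replicate block 1 clock gene rose (BHLHE40) and 1 fell (PER2). Among partners 3 rose and 3 fell, and 984 and 911 genes rose and fell in all. Deviations of same-numbered libraries from their group means had correlations of −0.30, −0.14 and 0.042. Pairs with unlike numbers were not compared, so these values cannot tell whether a number marks a shared culture. The cause of the lower counts with the block was not tested. No called value changed sign; 5 uncalled values of clock genes did (CRY1, CRY2 and NR1D1). With a mean of 20 counts or more, TEF, BHLHE41 and FBXL21P were not tested. Library totals as scaling moved the median log2 fold change of all genes to −0.04. Depth limits PER1, CRY2 and NR1D1 most, with 13 to 62 counts per library.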
